A study of Mus musculus with 48 samples.

Results

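The 10 immediate early genes Fos, Fosb, Jun, Junb, Egr1, Egr3, Ier2, Nr4a1, Nr4a3 and Atf3 were followed across genotype, tumor and circadian time in mouse tibialis anterior, a fast muscle of the lower leg. They were taken by gene symbol from the deposited RNA-seq tables, in a choice made with earlier results of these data known. All 10 were found among the 56748 genes listed, and all 10 were among the 15637 genes that passed the filter on low counts and were tested. Immediate early genes are switched on within minutes of a stimulus without new protein synthesis, through kinases and calcium signals that act on factors already bound at their promoters, such as CREB and serum response factor. Most encode transcription factors: FOS and JUN family proteins pair as AP-1, EGR1 and EGR3 are zinc finger factors, NR4A1 and NR4A3 are orphan nuclear receptors, ATF3 is a stress-induced bZIP factor, and Ier2 encodes a small nuclear protein. In skeletal muscle they are known for their brief rise after contraction.

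The series compared WT and FoxP1SkmKO mice at CT18, 22, 26, 30, 34 and 38 (circadian time in hours), each injected in the pancreas with either sterile PBS (control) or KPC cells, a murine pancreatic cancer line, with 2 mice per group and 48 libraries in all. FoxP1SkmKO mice are homozygous for a floxed allele of Foxp1, a forkhead transcription factor gene, and carry Cre under the skeletal actin promoter ACTA1, which acts in muscle fibers and leaves the other cells of the muscle unchanged. All mice were males, 39 to 55 weeks old by the labels, and were in constant darkness from CT0, with the first muscles taken 18 h later. Muscles of KPC mice were taken at the onset of wasting. The sample labels and the methods give WT as C57BL/6J, whereas the design text gives them as floxed mice without Cre, and a later passage of the study gives a younger age for the mice of the RNA-seq. Strain, floxed allele and Cre therefore cannot be told apart in any comparison of the genotypes.

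Total counts ran from 14480867 to 20787784 per library (median 16602092), and the medians of the 4 combinations of genotype and condition lay between 16431858 and 16987200. Foxp1 itself did not separate the genotypes: it had a mean FPKM (fragment counts scaled to transcript length and library size) of 0.63 ± 0.14 (SD, n = 12) in WT control and 0.578 ± 0.068 (n = 12) in FoxP1SkmKO control mice, with overlapping ranges. Its log2 difference was -0.11 (SE 0.070, adjusted p = 0.459) in control mice and -0.20 (SE 0.071, adjusted p = 0.246) in KPC mice, so the genotypes are named here as labelled. Markers of muscle fibers summed to 37710 to 51860 FPKM over the 48 libraries, those of T cells to at most 0.755 FPKM and those of neutrophils to at most 16.2 FPKM. In bulk muscle, fewer cells of a type and less RNA per cell cannot be told apart.

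Promoter sequences, from 250 bases before to 50 bases after the transcription start, were held in the RefSeq table (GRCm38.p6) for 7 of the 10 genes (Atf3, Nr4a3, Jun, Fosb, Junb, Fos and Nr4a1). The genes were chosen by symbol and not by sequence, but they belong to a class that CREB is known to act on. Among the motifs searched, that present in the largest number of these windows is printed. The cAMP response element half-site, TGACG or its reverse complement CGTCA, is the core that CREB and ATF family proteins recognize. It was present in 6 of the 7 windows, all except Jun, and in 20.8% of all 32851 promoter windows. The comparison was not matched for base composition. Nr4a1 and Nr4a3 held 4 copies each, Fos 2, and Fosb, Junb and Atf3 1 each. The 30 bases around the copy nearest to the start (the RefSeq start) are given 5′ to 3′ on the strand of the gene, with half-sites in capitals:
Fos: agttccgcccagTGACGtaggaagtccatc
Fosb: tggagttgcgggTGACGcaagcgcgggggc
Junb: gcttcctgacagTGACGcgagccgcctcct
Nr4a1: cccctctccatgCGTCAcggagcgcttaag
Nr4a3: ctgtggcataaaTGACGtgccgagagagcg
Atf3: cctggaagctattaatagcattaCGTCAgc

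Each of the 7 promoter windows matched GRCm39 exactly once. In GRCm39 the printed stretches lie at chr12:85520586-85520615 (plus strand, Fos), chr7:19044013-19044042 (minus, Fosb), chr8:85705466-85705495 (minus, Junb), chr15:101164675-101164704 (plus, Nr4a1), chr4:48045146-48045175 (plus, Nr4a3) and chr1:190915531-190915560 (minus, Atf3). Those of Fos, Fosb and Junb do not overlap an exon of the GENCODE canonical transcript, while the stretches of Nr4a1, Nr4a3 and Atf3 overlap one. The half-sites start 66 bases before the RefSeq start in Fos, 60 in Fosb, 106 in Junb, 40 in Nr4a1, 147 in Nr4a3 and 7 in Atf3. The EGR motif GCGNGGGCG, read on both strands, was in the windows of Fosb and Nr4a1 (5.55% of all windows), and the forkhead motif GTAAACA was in that of Junb (3.65%). The full element TGACGTCA (1.79% of all windows), the AP-1 motif TGANTCA (7.81%), the E-box CACGTG (7.15%), the NR4A motif AAAGGTCA (1.51%), the D-box TTATGTAA (0.938%) and the CArG box of serum response factor (1.63%) were in none of the 7. Bases outside the 7 windows were not searched, so an element further from the start would be missed. The half-site letters are part of the full element, and a match of letters is not a measure of binding.

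The 10 genes differed widely in level on the FPKM scale, which is per length and so can be compared between genes. Nr4a1 and Jun were the most abundant in every library: Nr4a1 had a lowest, median and highest FPKM of 32.6, 52.5 and 90.7 over the 48 libraries, and Jun of 22.4, 31.4 and 50.2. Their ranges overlapped each other but not those of the other genes. Ier2 (2.86, 4.42 and 6.82), Junb (1.79, 3.70 and 6.75), Fos (0.464, 1.95 and 7.46), Egr1 (0.713, 1.89 and 4.07), Atf3 (0.492, 1.43 and 4.99) and Nr4a3 (0.318, 0.932 and 4.24) followed with ranges that each overlapped that of the next. Egr3 (0.0337, 0.212 and 0.574) and Fosb (0.0283, 0.0965 and 0.262) were lowest and rested on few reads, with median counts of 16 and 10 per library. The most abundant, Nr4a1, had a median count of 3050.

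**Figure D1:**
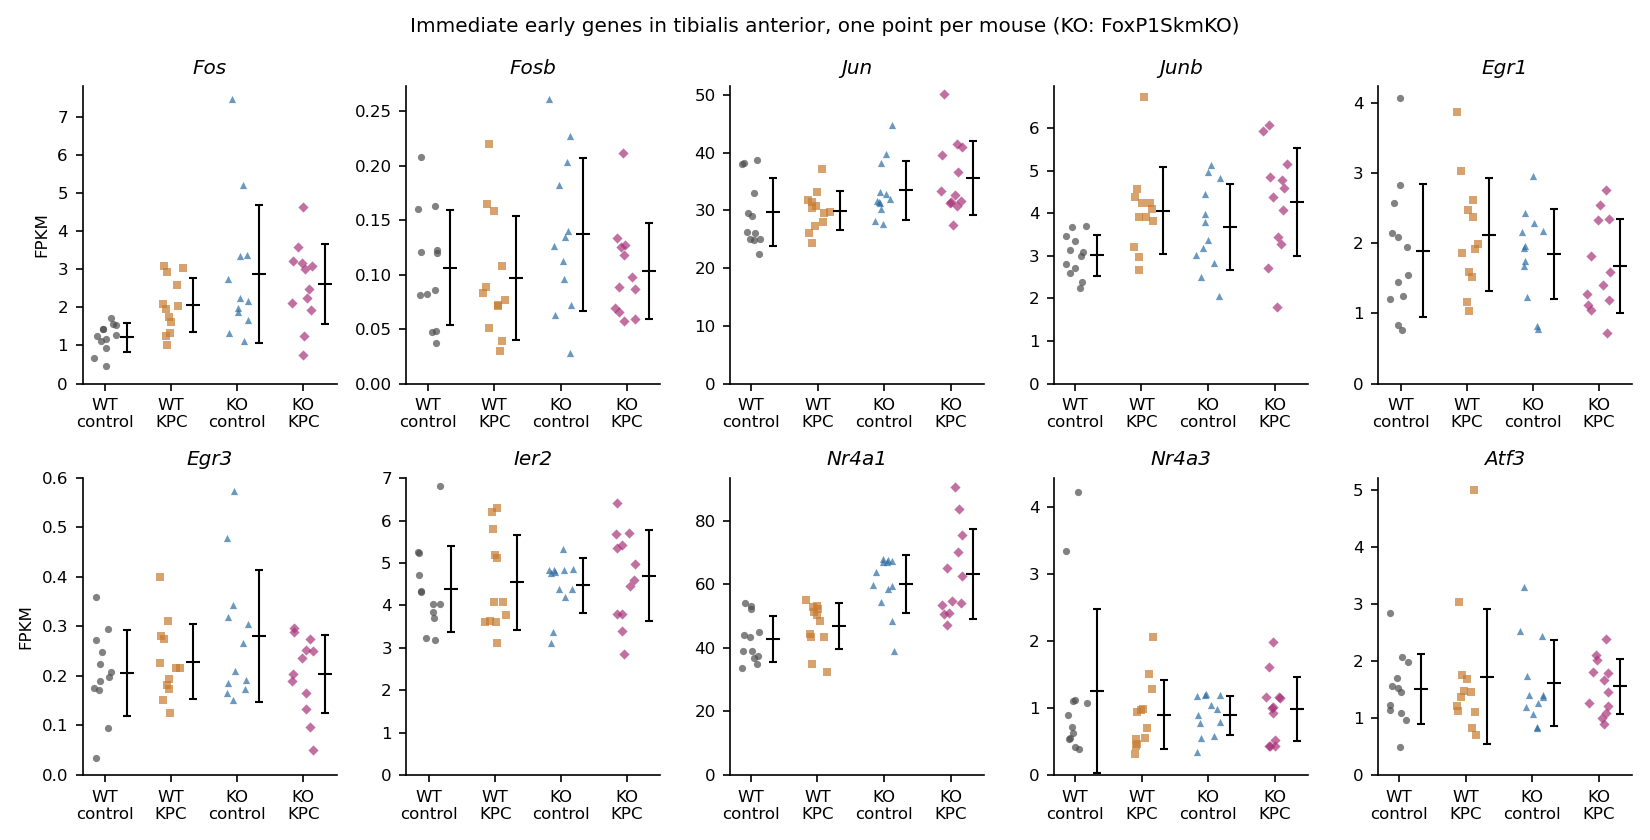
FPKM of each immediate early gene (y axis, from 0) in the 12 mice of each combination of genotype and condition (x axis, KO for FoxP1SkmKO), 1 point per mouse, with the mean and SD as a black bar to the right of the points. Nr4a1 lay at a mean of 42.7 in WT control and 60.02 in FoxP1SkmKO control mice, and Fos at 1.21 and 2.87.

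To ask whether loss of FoxP1 in muscle fibers went with a different resting level of these genes, FoxP1SkmKO control mice were compared with WT control mice, averaged over the 6 times. Nr4a1 and Fos were higher in FoxP1SkmKO muscle and none of the 10 was lower at an adjusted p under 0.05, against 3.44% of all genes tested that were called (1.86% higher and 1.58% lower). Nr4a1 (chr15:101152150-101172676 in mm39), which is induced by contraction and by adrenergic signals in muscle and regulates genes of glucose metabolism there, had a lowest, median and highest FPKM of 33.7, 41.3 and 54.2 in the 12 WT control mice and of 39.0, 61.8 and 68.1 in the 12 FoxP1SkmKO control mice. The groups overlapped, but 10 of the 12 FoxP1SkmKO mice lay above every WT mouse, and the mean of the 2 FoxP1SkmKO mice was the higher one at 6 of 6 times. The log2 difference was 0.50 (SE 0.063, adjusted p = 1.6e-05).

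Fos (chr12:85520664-85524047), the prototype of the class and a partner in AP-1, had a lowest, median and highest FPKM of 0.464, 1.25 and 1.73 in WT control mice and of 1.11, 2.19 and 7.46 in FoxP1SkmKO control mice. In 9 of the 12 FoxP1SkmKO mice Fos exceeded the highest WT value, and its mean was higher at 6 of 6 times. The log2 difference was 1.21 (SE 0.22, adjusted p = 0.00128). The FoxP1SkmKO mice were far apart among themselves: at CT22 the 2 mice had 1.99 and 7.46 FPKM, and at CT18 they had 2.15 and 5.195. Fos remained called without each of these libraries and without each time, with log2 differences of 1.003 to 1.40.

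The other 8 genes did not pass in control mice. Jun (chr4:94937271-94940459), which encodes the usual partner of FOS, had a median FPKM of 27.7 in WT and 31.9 in FoxP1SkmKO control mice (log2 difference 0.18, SE 0.054, adjusted p = 0.062), and DESeq2 called it (adjusted p = 0.0314). It was called in 5 of 24 fits without 1 library (adjusted p up to 0.139) and in 1 of 6 without 1 time (up to 0.198). Egr3, a calcineurin-responsive factor, had medians of 0.203 and 0.238 FPKM (log2 difference 0.52, adjusted p = 0.15). Junb had medians of 3.04 and 3.58 FPKM with a mean higher at 6 of 6 times (log2 difference 0.27, SE 0.12, adjusted p = 0.243). For Egr1, Ier2 and Atf3 the log2 differences were 0.01, 0.05 and 0.06, with SEs of 0.18, 0.091 and 0.17. Fosb was at 0.41 (SE 0.27, adjusted p = 0.442) and Nr4a3 at -0.29 (SE 0.27), the only one of the 10 below 0. The median over the 10 was 0.22, beside 0.0014 over all genes tested.

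**Figure D2:**
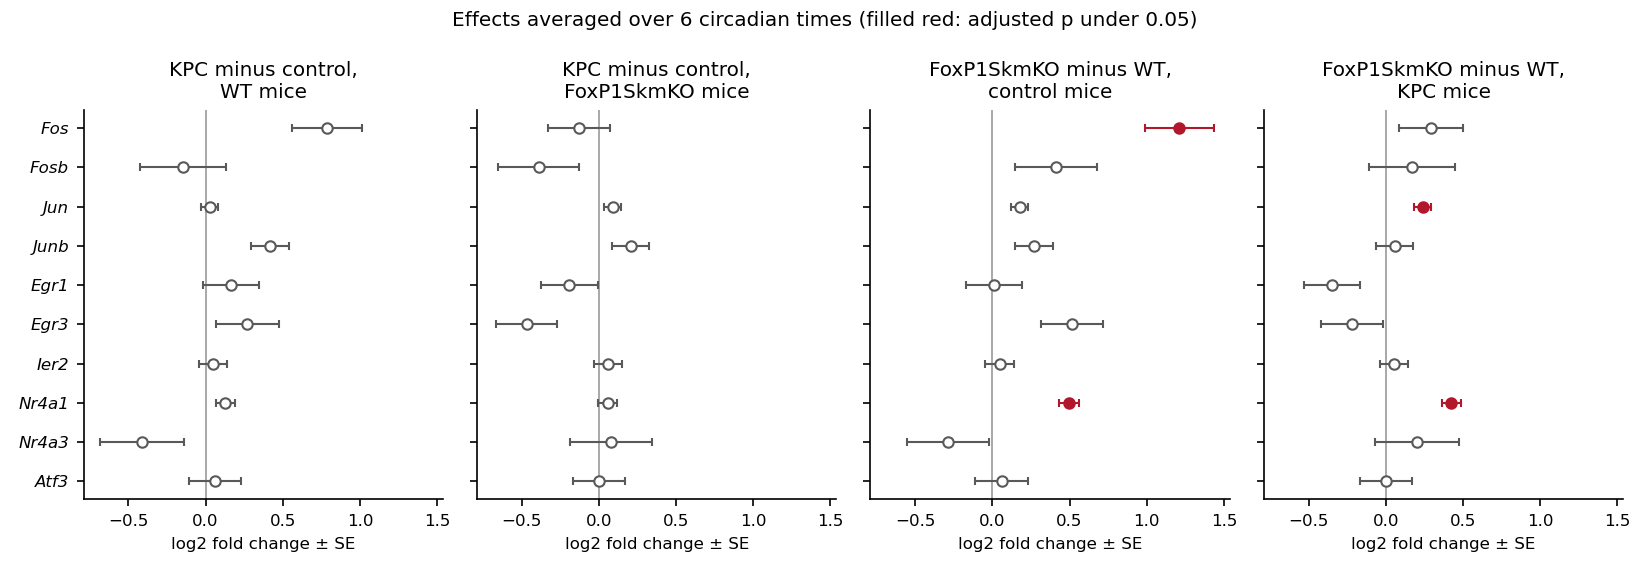
Log2 fold changes with their SE (x axis) for the 10 genes (y axis) in 4 comparisons, each averaged over 6 circadian times, with genes at an adjusted p under 0.05 filled in red. Nr4a1 is filled in both comparisons of the genotypes, Fos in that of control mice (1.21), Jun in that of KPC mice (0.24), and no gene is filled in the comparisons of KPC with control mice.

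Further early genes, from a list made with earlier results of these data known, were called in the same comparison. Of 45 further early genes listed for this purpose, 42 were tested, and 14 were called higher and 0 lower in FoxP1SkmKO control mice, beside 1.86% and 1.58% of all genes tested. The median log2 difference of the 42 was 0.24, and 34 of them were above 0. The 4 with the lowest adjusted p were Klf2, a flow- and MEF2-responsive Krüppel-like factor (0.71, adjusted p = 0.000195), Klf6 of the same family (0.39, adjusted p = 0.000613), the clock repressor Per1 (0.75, adjusted p = 0.00123) and the kinase gene Pim1 (0.49, adjusted p = 0.00128). The count of 14 fell to 9 when CT18 was left out and to 9 without FoxP1SkmKO control CT18 replicate 2. Of the 30 genes listed for the kinases, phosphatases and resting factors that act upstream, 2 were called, both lower: Rps6ka3, which encodes the kinase RSK2 (-0.27, adjusted p = 0.0024), and Ppp3cb, a calcineurin subunit gene (-0.15, adjusted p = 0.0264). None of 8 heat shock genes was called, although 5 had an unadjusted p under 0.05 in edgeR, as had 2682 of 15637 genes tested. Among the cell type markers, 1 passed, the fiber gene Tnnt3 (-0.14, adjusted p = 0.0339), and 2 of 3 Schwann cell markers had an unadjusted p under 0.05. Of the 6 fiber genes 2 were above 0, and their median log2 difference was -0.04. The part of such markers in the differences of the early genes was not tested.

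In mice with KPC tumors the same contrast of genotypes called Nr4a1 and Jun, both higher, against 0.32% of all genes tested that were called (0.256% higher and 0.064% lower). These are other mice than those of the control comparison. Nr4a1 had a lowest, median and highest FPKM of 32.6, 49.3 and 55.1 in WT KPC mice and of 47.1, 58.6 and 90.7 in FoxP1SkmKO KPC mice. In 6 of the 12 FoxP1SkmKO KPC mice Nr4a1 lay above every WT KPC mouse, and the mean was higher at 6 of 6 times. The log2 difference was 0.42 (SE 0.063, adjusted p = 0.000909). It was 0.33 with an adjusted p of 0.0646 when CT30 was left out, the time at which the 2 FoxP1SkmKO KPC mice had 90.7 and 83.8 FPKM and the 2 WT KPC mice 44.3 and 50.4.

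Jun had a lowest, median and highest FPKM of 24.4, 30.1 and 37.2 in WT KPC mice and of 27.5, 33.1 and 50.2 in FoxP1SkmKO KPC mice. The ranges overlapped, with 4 of 12 FoxP1SkmKO mice above every WT mouse. The log2 difference was 0.24 (SE 0.054, adjusted p = 0.0413), and it remained called in 7 of the 24 fits that left out 1 library and in 2 of the 6 that left out 1 time. It was 0.21 with an adjusted p of 0.131 without FoxP1SkmKO KPC CT38 replicate 1, which held the highest value. Fos was not called here: its medians were 2.00 FPKM in WT KPC and 2.74 FPKM in FoxP1SkmKO KPC mice (log2 difference 0.29, SE 0.21, adjusted p = 0.64). Of the 42 other early genes 1 was called, Pim1 (0.47, adjusted p = 0.00574), while Klf2 (0.33, adjusted p = 0.19), Klf6 (0.17, adjusted p = 0.326) and Per1 (0.46, adjusted p = 0.116) were not. No upstream regulator was called in edgeR, and 5 of 30 had an unadjusted p under 0.05, a count given without the share over all genes.

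**Figure D3:**
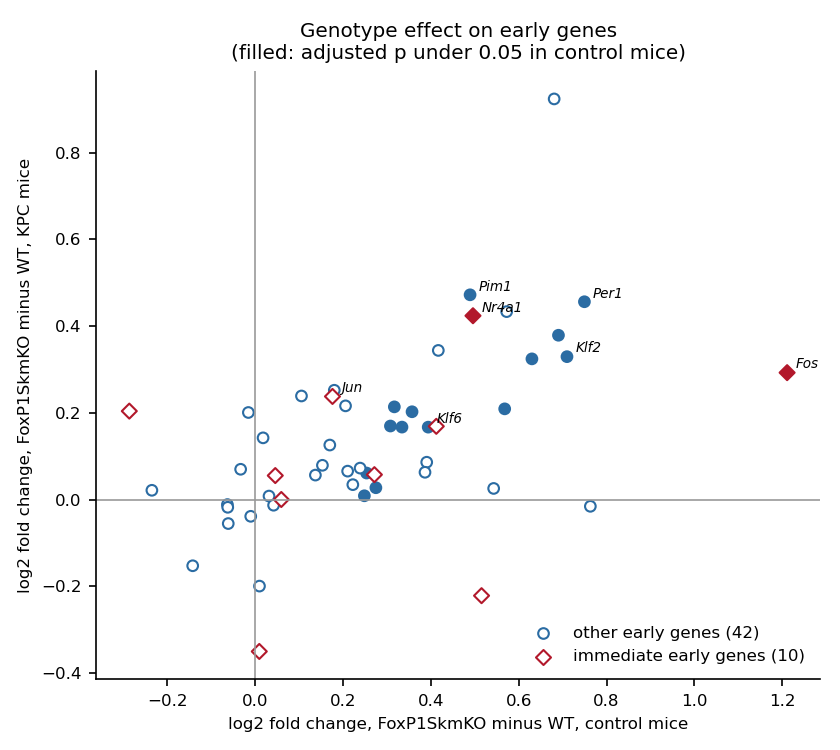
Log2 fold change between FoxP1SkmKO and WT mice in control mice (x axis) and in KPC mice (y axis) for the 10 immediate early genes (diamonds) and 42 other early genes (circles), filled where the adjusted p in control mice was under 0.05. The filled genes, 2 of the 10 and 14 of the 42, lie right of 0 in control mice, and Fos lies at 1.21 in control and 0.29 in KPC mice.

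To ask whether tumor-bearing went with a change of these genes, KPC mice were compared with control mice within each genotype. None of the 10 was called in WT mice, against 1.79% of all genes tested. In edgeR 3 of the 10 (Fos, Junb and Nr4a1) had an unadjusted p under 0.05, as had 2370 of 15637 genes tested. Fos had a lowest, median and highest FPKM of 0.464, 1.25 and 1.73 in WT control mice and of 1.01, 2.00 and 3.08 in WT KPC mice, with 8 of 12 KPC mice above every control mouse and a higher mean at 5 of 6 times. The log2 difference was 0.79 (SE 0.23, adjusted p = 0.0614). Junb (chr8:85701113-85705347), an AP-1 subunit gene with a known role in the upkeep of muscle mass, had 2.24, 3.04 and 3.71 FPKM in WT control mice and 2.68, 4.01 and 6.75 FPKM in WT KPC mice, with 9 of 12 KPC mice above every control mouse and a higher mean at 6 of 6 times. Its log2 difference was 0.42 (SE 0.12, adjusted p = 0.0716).

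These results for Fos and Junb stood at the threshold. DESeq2 called both (adjusted p = 0.0353 for Fos and 0.0277 for Junb). Both were also called without WT KPC CT30 replicate 2 (adjusted p = 0.0312 and 0.0304) and without WT KPC CT38 replicate 1 (adjusted p = 0.0384 and 0.0475), and Fos without CT22 (adjusted p = 0.0358). Each was called in 2 of the 24 fits without 1 library, with adjusted p-values up to 0.182 for Fos and 0.192 for Junb without WT KPC CT30 replicate 1. Without CT34 the log2 difference of Fos was 0.54 (adjusted p = 0.288) and that of Junb had an adjusted p of 0.171. Nr4a1 was at 0.13 (SE 0.063, adjusted p = 0.326), and the median over the 10 was 0.09, beside 0.0016 over all genes tested. The remaining genes had log2 differences from -0.41 for Nr4a3 (SE 0.27) to 0.27 for Egr3 (SE 0.20). Among the other early genes 4 of 42 were called: Per1 (0.61, adjusted p = 0.0159), the cytokine signaling inhibitor Socs3 (0.81, adjusted p = 0.0227) and the matricellular gene Ccn1 (0.26, adjusted p = 0.0311) were higher, and the kinase gene Plk2 was lower (-0.27, adjusted p = 0.0397). Of 12 tested targets of AP-1 and EGR factors 1 was called: Ccnd1, the cyclin D1 gene, was lower (-0.66, adjusted p = 0.0207).

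Markers of other cells differed between KPC and control mice. In WT mice the neutrophil genes S100a8 (2.83, adjusted p = 0.0315) and S100a9 (2.06, adjusted p = 0.0269) were higher. Lower were 2 of 4 fibroblast genes, Col1a1 (-0.91) and Col3a1 (-0.71), and 1 of 4 endothelial genes, Kdr (-0.27). Of these 4 endothelial genes 2 were above 0, and their median log2 difference was -0.04. Summed neutrophil markers ranged from 0.0654 to 1.54 FPKM in WT control and from 0.571 to 3.27 FPKM in WT KPC mice, and summed fibroblast markers from 22.9 to 75.4 FPKM and from 14.5 to 62.9 FPKM. In FoxP1SkmKO mice none of these markers was called in edgeR. An unadjusted p under 0.05 was found for 3 of 3 neutrophil and 4 of 4 fibroblast genes, beside 1936 of 15637 genes tested. For these neutrophil and fibroblast markers the median log2 differences were 2.31 and -0.61, beside 2.06 and -0.60 in WT mice. Their part in the values of the early genes was not tested in either genotype.

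In FoxP1SkmKO mice none of the 10 genes was called between KPC and control mice, against 0.428% of all genes tested. In edgeR 1 of the 10 (Egr3) had an unadjusted p under 0.05, as had 1936 of 15637 genes tested. Fos had medians of 2.19 and 2.74 FPKM in control and KPC mice (log2 difference -0.13, SE 0.20), with a mean higher in KPC mice at 3 of 6 times. Junb had medians of 3.58 and 4.49 FPKM (log2 difference 0.20, SE 0.12, adjusted p = 0.507). Egr3 had medians of 0.238 and 0.22 FPKM (log2 difference -0.47, SE 0.20, adjusted p = 0.301). Of the other early genes 1 was called, Dusp6, a MAP kinase phosphatase gene (-0.30, adjusted p = 0.0266).

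The difference of the tumor effect between the genotypes was tested directly. It called 0 of the 10 genes and 0% of all genes tested, while 1020 genes, Fos and Egr3 of the 10 among them, had an unadjusted p under 0.05 in edgeR, and DESeq2 gave these 2 genes adjusted p-values of 0.975. For Fos the effect in WT minus that in FoxP1SkmKO mice was 0.92 on the log2 scale (SE 0.30, adjusted p = 0.764), and for Egr3 it was 0.74 (SE 0.28, adjusted p = 0.764). The same contrast also tests whether the genotype effect differed between control and KPC mice, and all these comparisons share their groups of mice. At single times, with 2 mice a group, 0 of the 60 pairs of gene and time were called in WT mice, against 1.2% of such pairs over all genes tested, and 0 of 60 in FoxP1SkmKO mice, against 0.0107%. Most calls of WT mice fell at CT26, where 7.17% of all genes tested were called. In edgeR 0 to 4 of the 10 had an unadjusted p under 0.05 at a single time, a count given without the share over all genes. In 2 of the 60 pairs (Fos at CT18 and Egr3 at CT26) the KPC and control mice did not overlap in either genotype and differed in opposite directions, against 5.83% of such pairs over all genes tested. At CT26 Nr4a1 had 38.9 and 36.7 FPKM in WT control and 52.0 and 53.0 FPKM in WT KPC mice, and 4 alternative fits called it (adjusted p = 0.0205 with DESeq2 on 48 libraries, 0.0294 with edgeR and 0.000384 with DESeq2 on the 4 libraries, and 0.000676 in edgeR without the filter on low counts).

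To ask whether these genes varied with circadian time, the 6 times were compared. Averaged over the 4 combinations of genotype and condition, 7 of the 10 genes differed between the 6 times, against 40.6% of all genes tested. They were Jun (adjusted p = 5.92e-06), Nr4a1 (7.99e-05), Ier2 (0.000253), Egr1 (0.00155), Junb (0.00378), Atf3 (0.0223) and Fosb (0.0351). Nr4a3 (0.0663), Egr3 (0.141) and Fos (0.154) did not pass. Jun, Nr4a1, Ier2, Egr1 and Junb remained called in each of the 48 fits that left out 1 library, Atf3 in 45 and Fosb in 34. Nr4a3 was called in 7, with an adjusted p of 0.00841 without WT control CT22 replicate 1.

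The called genes did not share 1 time of day. Jun had its highest mean FPKM over 8 mice at CT18 (37.4 ± 5.4, SD) and CT38 (36.6 ± 6.4) and its lowest at CT30 (28.5 ± 3.1) and CT26 (28.5 ± 2.3). Junb and Egr1 went the other way, with means of 4.76 ± 1.2 and 2.57 ± 0.63 at CT30 and of 3.20 ± 0.91 and 1.29 ± 0.21 at CT38. Egr1 did not overlap between these times, with 1.95 to 3.87 FPKM at CT30 and 1.04 to 1.67 FPKM at CT38. They are the times of its highest and lowest mean, picked from the same values. The share of all genes with such a gap was not counted. Nr4a1 was highest at CT30 (62.3 ± 18) and lowest at CT18 (45.2 ± 8.4). Ier2 was highest at CT26 (5.68 ± 0.83) and again high at CT38 (5.06 ± 0.56), with 3.91 ± 0.65 at CT18 and 3.79 ± 0.64 at CT34. Fosb had 0.143 ± 0.051 FPKM at CT26 and 0.0696 ± 0.028 FPKM at CT34, and Atf3 had 1.98 ± 1.4 and 1.05 ± 0.31 at the same times.

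**Figure D4:**
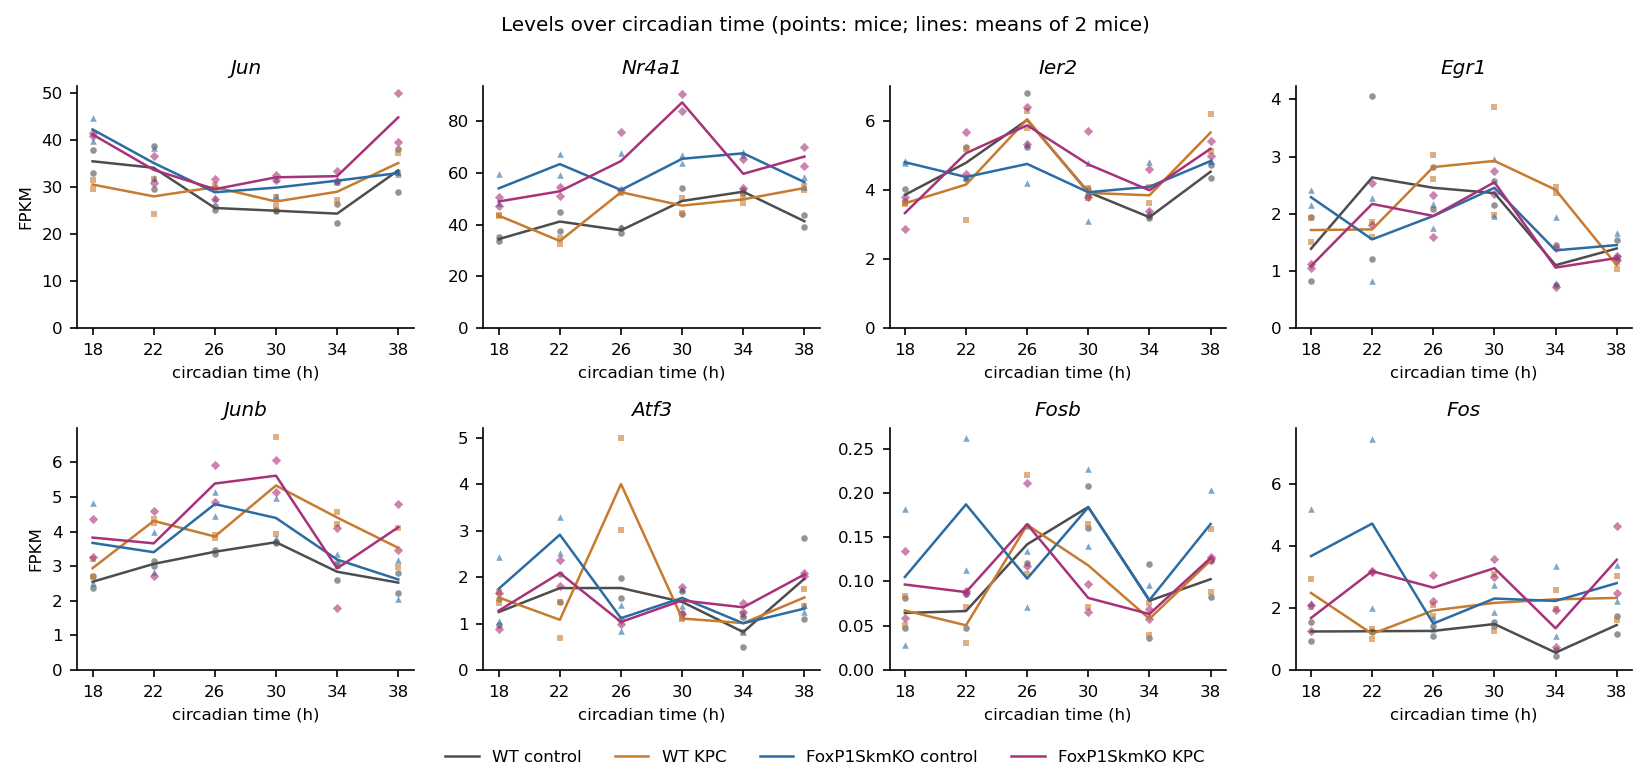
FPKM (y axis, from 0) of the 7 genes called between times and of Fos over circadian time (x axis, h), with 1 point per mouse and lines through the means of the 2 mice of each combination of genotype and condition. Jun is lowest at CT26 and CT30, where Junb and Egr1 are high, and Atf3 in WT KPC mice stands at 4.99 and 3.02 at CT26.

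Within single combinations of genotype and condition the counts were smaller. In WT control mice 5 of the 10 genes were called between times (Jun, Nr4a1, Nr4a3, Ier2 and Egr3), against 18.7% of all genes tested. In WT KPC mice 3 were called (Atf3, Nr4a1 and Ier2), against 11%. In FoxP1SkmKO control mice 1 was called (Jun), against 6.4%, and in FoxP1SkmKO KPC mice 2 (Nr4a1 and Jun), against 5.99%. Whether the time course differed between these combinations was not tested. Without 1 library the 5 calls of WT control mice fell to as few as 1. Jun there was called in 12 of 12 such fits, Nr4a1 and Nr4a3 in 7 each, Ier2 in 6 and Egr3 in 1. In WT KPC mice Atf3 was called in 11 of 12 such fits, Nr4a1 in 10 and Ier2 in 2, and Ier2 was not called with DESeq2 size factors (adjusted p = 0.0508). In FoxP1SkmKO control mice Jun was called in 4 of 12 (adjusted p up to 0.302), and in FoxP1SkmKO KPC mice in 11 of 12.

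Jun in the 12 WT control mice fell from 38.0 and 33.04 FPKM at CT18 to 25.1 and 24.9 FPKM at CT30, and stood at 29.1 and 38.1 FPKM at CT38. Nr4a1 in the 2 FoxP1SkmKO KPC mice of each time stood at 50.7 and 47.1 FPKM at CT18 and at 90.7 and 83.8 FPKM at CT30, and it was called in 12 of 12 fits without 1 library. Atf3, which is also a gene of the integrated stress response, had 4.99 and 3.02 FPKM at CT26 in WT KPC mice and at most 1.76 FPKM at the other times of that combination (adjusted p = 0.00247). Without WT KPC CT26 replicate 1 its adjusted p was 0.121. Nr4a3 in WT control mice had 0.629 and 4.24 FPKM at CT22 and 0.533 and 3.34 FPKM at CT26, so that a single mouse of each pair was high.

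Each gene was then tested in each combination for a 24 h sinusoid (an F test on n = 12 mice), read at an unadjusted p under 0.01. In WT control mice 2 of the 10 genes passed, against 4.92% of all genes fitted. Jun peaked at CT18.3 with an amplitude of 6.49 around a mean of 29.7 FPKM (n = 12, p = 0.00652), and Junb peaked at CT27.8 with an amplitude of 0.588 around 3.02 FPKM (n = 12, p = 0.000685). In WT KPC mice 0 passed, against 4.22%, and in FoxP1SkmKO control mice 0 passed, against 4.07%, where Jun had p = 0.0104 (n = 12) and a peak at CT17.9. In FoxP1SkmKO KPC mice Jun passed (n = 12, p = 0.00644, peak at CT15.7, amplitude 7.07 around 35.6 FPKM), against 2.63%. All 10 genes passed the filter on low counts, and among genes that did so 8.07%, 6.9%, 7.02% and 4.41% had a p under 0.01 in WT control, WT KPC, FoxP1SkmKO control and FoxP1SkmKO KPC mice. None of the 40 fits passed at a Benjamini-Hochberg adjusted p under 0.05, against 0.551%, 0.475%, 0.414% and 0.116% of all genes fitted in the same order. On the log2 CPM scale 5 of the 40 passed at p under 0.01, given without the share over all genes on that scale. Each fit rests on 12 mice, and the 6 times cover less than 1 full period.

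Genes of the other lists also varied with time: 30 of 42 other early genes and 22 of 30 upstream regulators were called in the average over the 4 combinations, beside the 40.6% of all genes tested. The lowest adjusted p-values among the early genes were those of Per1 (1.43e-11), Pim1 (1.41e-10), Ccn1 (1.02e-09) and the ADP-ribosyltransferase gene Tiparp (2.29e-07). Among the upstream genes they were those of the actin-sensing coactivator Mrtfa (1.21e-08), the kinase gene Rps6ka5 (6.69e-08), the CREB coactivator Crtc3 (6.18e-06) and Mef2c (2.31e-05). All 5 macrophage markers and all 4 fibroblast markers were called over time as well, and their part in the time courses of the early genes was not tested.

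The 2 mice of a group often differed in these genes. The biological coefficient of variation between mice, from the dispersion of each gene in the fit, was 41.6% for Nr4a3, 33.3% for Fos, 33.02% for Fosb, 29.7% for Egr1, 25.4% for Atf3, 22.2% for Egr3, 19.1% for Junb, 13.1% for Ier2, 10.9% for Nr4a1 and 9.27% for Jun. The median over all genes tested was 11.5%. Because the spread depends on the level of a gene, each gene was set against genes within 0.5 of its mean log2 CPM. Of these neighbors 99.3% varied less than Nr4a3, 98.6% less than Fos and 98.6% less than Egr1, and 92.6% varied less than Nr4a1 and 84.7% less than Jun. Egr3, with 39.9%, was the only one of the 10 below the middle of its neighbors.

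In FPKM, the larger value of a pair of mice was more than 2 times the smaller one in 7 of 24 groups for Fosb, 6 for Nr4a3, 5 for Fos, 4 each for Egr1, Egr3 and Atf3, 1 for Junb and 0 for Jun, Ier2 and Nr4a1. The widest pair was that of Nr4a3 in WT control mice at CT22, 6.74-fold, where Egr1 (3.38-fold) and Egr3 (2.80-fold) also had their widest pair. In the high Nr4a3 mouse of that pair Egr1 was 4.07 FPKM and Fos 1.26 FPKM. The folds of Fosb and Egr3 rest on few reads. The widest pair of Fosb (FoxP1SkmKO control CT18) held 3 and 21 reads, and that of Egr3 (WT control CT22) 3 and 7. Such folds do not separate counting noise from differences between mice.

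Part of this spread was shared between genes. Deviations of log2 CPM from the mean of the 2 mice of a group were correlated over the 48 libraries, which are 24 pairs of mirrored values, so the r of 2 genes rests on 24 differences. Over the 45 pairs of genes the median r was 0.26, with 5 pairs below 0. Fos and Egr1 were the closest (r = 0.67), followed by Fos and Junb (r = 0.61) and Junb and Egr3 (r = 0.59). Nr4a3 and Atf3 stood apart, with median r values of 0.03 and 0.07 to the other 9 genes and of -0.29 to each other. Libraries share depth and handling, and r is given without a p.

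**Figure D5:**
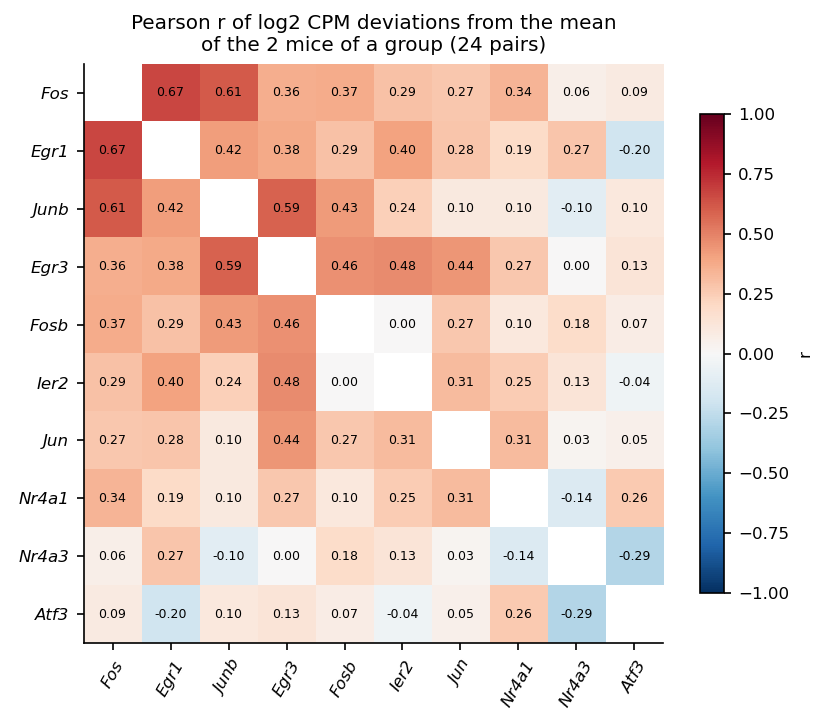
Pearson r between the 10 genes (rows and columns) of log2 CPM deviations from the mean of the 2 mice of each group, over 24 pairs of mice, on a color scale from -1 to 1. Fos, Egr1, Junb and Egr3 form the reddest block, with r up to 0.67, and Nr4a3 and Atf3 are near 0 to most genes.

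The genes most like the 10 were sought among 12623 other genes with a mean log2 CPM above 0, by the r of their deviations with the mean standardized deviation of the 10 genes over the same 48 libraries. The 10 closest included Sh3d19 (r = 0.66), the deubiquitinase gene Otud1 (0.64), Sfi1 (0.64), Armc9 (0.62), the early-response kinase gene Plk3 (0.61), Mob3c (0.61), Tmem218 (0.61), Csgalnact1 (0.60) and Plk5 (0.60), with 1 further gene listed without a symbol. These are the highest of 12623 r values, each of which rests on 24 differences. How many genes reach such an r by chance was not tested. Over the 40 other early genes among the candidates the median r was 0.27, beside -0.01 over all candidates.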

How the data were processed

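RNA-seq of tibialis anterior was analysed in 48 libraries from separate mice, 2 in each of 24 groups of genotype, condition and circadian time. Per the labels, poly-A RNA was sequenced and aligned to mm39 with HISAT2 2.0.5, whereas the methods name another aligner and counter, so the aligner is not settled. The authors deposited raw counts per gene in 12 tables, 1 for each comparison of KPC with control mice, and 1 table of FPKM. Genes with few reads are left out of a count table, and 28541 counts of 1 read were recovered from the FPKM values. The authors' fold changes and p-values in the same tables were not used.

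Counts were tested with edgeR 4.0.16 (quasi-likelihood F test, TMM, filterByExpr, R 4.3.3) in 1 fit of 48 libraries with 1 coefficient per group, with Benjamini-Hochberg adjustment over 15637 genes and a threshold of 0.05. Log2 fold changes come from this fit, and SEs from its quasi-likelihood covariance. Rhythms were fitted to FPKM by a sinusoid of 24 h in the 12 mice of each genotype and condition. Levels are the deposited FPKM. Scripts were tested on simulated data. Alternatives were DESeq2 1.42.0, its size factors, no filter, a term for the replicate number, fits on the 4 libraries of a time, and leaving out each library or time. The 2 libraries of each group differed by more than counting noise (chi-square per degree of freedom 5.15 to 17.4).

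The 10 genes, the lists of 45 other early genes, 30 upstream regulators, 15 targets, 8 heat shock genes and the cell type markers were chosen with earlier results of these data known. From the first 3 lists, up to 4 called genes with the lowest adjusted p were named per comparison, and markers were named where they passed. Egr1, Egr3 and Ier2 were not in the promoter table used here. The results of the target list for the genotype effects and for circadian time are not reported here.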

Additional observations from a re-analysis of the deposited data

Results flagged for a closer look

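For 2 of the 10 genes the tumor difference went opposite ways in the genotypes at 1 time, with no overlap between the 2 control and the 2 KPC mice in either genotype. Fos at CT18 had 0.942 and 1.55 FPKM in WT control, 2.94 and 2.04 FPKM in WT KPC, 2.15 and 5.195 FPKM in FoxP1SkmKO control and 2.11 and 1.25 FPKM in FoxP1SkmKO KPC mice. The log2 difference between the tumor effects was 2.13. Egr3 at CT26 had 0.172 and 0.190 FPKM in WT control, 0.399 and 0.280 FPKM in WT KPC, 0.267 and 0.343 FPKM in FoxP1SkmKO control and 0.236 and 0.204 FPKM in FoxP1SkmKO KPC mice, a log2 difference of 1.38. Neither difference was tested at its time. Such opposite pairs made up 2 of 60 pairs of gene and time for the 10 genes (3.33%), against 5.83% of 93822 such pairs over all genes tested.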

How the results depend on the processing

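Alternatives were compared for the counts of calls, for 11 log2 differences of single genes and for the tests between times. These 11 were picked with the main results known. None of these 11 differences changed sign. The signs of all other differences, those nearest to 0 (Egr1, Ier2 and Atf3) among them, were not compared between fits. Without a filter on low counts, edgeR tested 33218 genes and set each gene's spread to the trend. This gave 3 of the 10 genes called for the tumor effect in WT mice, 1 for its difference between genotypes, 4 for the genotype effect in control mice, 8, 7, 7 and 8 between times in WT control, WT KPC, FoxP1SkmKO control and FoxP1SkmKO KPC mice, and 7 and 5 of 60 pairs of gene and time for the tumor effect in WT and FoxP1SkmKO mice. DESeq2 on 48 libraries called 2 for the tumor effect in WT mice, 2 between times in FoxP1SkmKO control mice and 1 pair of gene and time in WT mice. On the 4 libraries of a time, edgeR called 2 pairs in WT mice, and DESeq2 called 2 pairs in WT and 1 in FoxP1SkmKO mice. Leaving out CT22 gave 1 call for the tumor effect in WT mice. For the genotype effect in KPC mice, leaving out CT18, CT34 or CT38 gave 1 call each and leaving out CT30 gave 0. The rhythm test called 5 of 40 on log2 CPM and 0 by adjusted p. These counts are given without the share of all genes called under each alternative. They show only how the calls depend on the processing.

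Without 1 library, the counts of the 10 genes called ran from 0 to 2 for the tumor effect in WT mice, 0 to 0 in FoxP1SkmKO mice and for the difference, 2 to 3 for the genotype effect in control and 1 to 2 in KPC mice, and 5 to 8 between times on average. Between times within WT control, WT KPC, FoxP1SkmKO control and FoxP1SkmKO KPC mice they ran from 1 to 5, 1 to 2, 0 to 2 and 1 to 3. The single-time pairs ran from 0 to 1 in WT and 0 to 0 in FoxP1SkmKO mice, and the rhythm calls from 2 to 4. These fits kept the genes and the dispersion trend of all 48 libraries, and a lone mouse of a group was assumed to vary like the others. The count of other early genes called for the genotype effect in control mice, whose alternatives were chosen after seeing the data, ran from 9 to 16 without 1 library and was 9 without CT18.

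The replicate numbers did not pair the mice: deviations of same-numbered libraries correlated at -0.324 to 0.234. With the replicate number as a block the counts were 0 for the tumor effect in WT mice, 0 in FoxP1SkmKO mice, 0 for the difference, 2 and 2 for the genotype effects, 7 between times on average and 4 rhythm calls. Depth limits Fosb and Egr3, whose counts started at 3 reads per library.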
